A study of Mus musculus with 100 samples.

Results

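The 34 genes described here form the glycolytic route from glucose uptake to lactate release together with the oxygen-sensing machinery and commonly used target genes of the hypoxia-inducible factor. They were listed by name, with earlier results of these data known, and all 34 were found among the 32153 genes of the series. Messenger RNA of mouse fat and of fat cells was sequenced in a study of what the loss of GPS2, a component of nuclear receptor corepressor assemblies, changes in adipocytes during obesity and beta-adrenergic activation. Every sample carries the strain label Adipoq-Cre-Gps2flox/flox, in which the adiponectin promoter drives Cre in adipocytes, and the genotype stands only in the sample titles as WT or KO. A wild-type sample is therefore one so titled, whatever alleles it carries, and in whole tissue the other cells of the fat pad keep the gene.

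There were 5 tables, each normalised on its own. CD held intra-abdominal fat of mice 19 weeks old (3 wild type, 3 labelled knockout). HFD, marked 4 weeks of high-fat diet, held intra-abdominal fat at 11 weeks of age (4 against 4). Epi held intra-abdominal fat and Adipo intra-abdominal adipocytes at 19 weeks, both marked 12 weeks of high-fat diet (3 against 3, and 3 against 2). BA, named for beta-adrenergic stimulation in both genotypes, held inguinal fat at 8 weeks (4 against 4). The labels name neither agent nor dose. Nothing in them ties a replicate to an animal of its own, so the p-values cover the variation among the sequenced samples and no more, and part of it may be technical.

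Replicates held from 29342792 to 63232066 recovered reads over all transcripts. The labels were only partly checked by Gps2 itself, whose full-length transcript did not separate the groups in any table. It read 272 to 381 normalised reads in BA libraries labelled knockout against 221 to 363 in wild type. In HFD it read 330 to 424 against 355 to 421. The share of the short transcript relative to it lay at 29.7 to 35.4% in BA knockout against 41.7 to 47.3% in wild type. In CD this share was 29.5 to 39.8% against 40.3 to 46.4%. In HFD the groups overlapped, with 34.6 to 36.6% in the libraries labelled knockout and 35.5 to 44.7% in wild type, where wild type 4 lay inside the knockout range. In Epi the replicates labelled knockout 2 and 3 were at 50.3 and 49.9%, both above the wild-type range of 42.3 to 49.3%. Epi knockout 1 was at 38.5%, below that range. Adipo knockout 2 was at 47.9%, within the wild-type range of 45.5 to 50.9%, and knockout 1 was at 31.3%, below it. In CD the nearest pair of replicates was that labelled knockout 1 and 2. They may not be distinct samples, so the CD sample sizes, spreads and p-values treat as separate what may not be. CD wild type 2 and knockout 1 and 2 carried epithelial markers at a mean log2 level of 9.04 to 9.97, against 4.53 or less in the other 3. CD knockout 1 and 2 also carried epididymis or testis markers at 7.77 and 7.63, against 3.36 or less in the other CD replicates. Epi knockout 2 and 3 carried epididymis markers at 11.17 and 9.29, against 4.67 in wild type 1 and 0.79 or less in the remaining Epi replicates. Adipocyte markers (Adipoq, Plin1, Cidec and 5 others) were present in every replicate, and in the Adipo table at a mean log2 level of 16.5 to 16.9.

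Glycolysis splits glucose into pyruvate, yielding ATP without oxygen, and lactate dehydrogenase then turns pyruvate into lactate, which leaves the cell through monocarboxylate transporters. When oxygen is short, prolyl hydroxylases of the EGLN family stop marking HIF-1α for destruction, and the stabilised factor binds short elements with the core ACGTG or GCGTG near glycolytic enzymes, glucose transporters, angiogenic factors and mitophagy receptors. In adipose tissue glycolysis also supplies glycerol 3-phosphate for triglyceride storage, and local hypoxia has been described in fat pads that expand on a rich diet.

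The proximal promoters below belong to the 5 genes that passed the test in at least 1 table and to Adm, the gene with the largest difference in adipocytes, and are shown because the core of the hypoxia response element can be read in them. Each is the stretch of at most 250 bases before the RefSeq start on GRCm38.p6, cut back where the measured transcript began earlier, written 5′ to 3′ on the gene's own strand. Capitals mark ACGTG or GCGTG on either strand. In the GENCODE M21 annotation of GRCm38 the genes span chr10:59949669-59951834 (Ddit4), chr2:11471433-11554077 (Pfkfb3), chr13:6579768-6648777 (Pfkp), chr6:142490249-142507957 (Ldhb), chr11:54100095-54131665 (P4ha2) and chr7:110627661-110629820 (Adm).
Ddit4, chr10:59951835-59952020, - strand: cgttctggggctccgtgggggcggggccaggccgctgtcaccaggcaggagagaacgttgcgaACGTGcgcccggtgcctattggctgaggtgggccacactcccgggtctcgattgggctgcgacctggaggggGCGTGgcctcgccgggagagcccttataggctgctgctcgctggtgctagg
Pfkfb3, chr2:11502102-11502340, - strand: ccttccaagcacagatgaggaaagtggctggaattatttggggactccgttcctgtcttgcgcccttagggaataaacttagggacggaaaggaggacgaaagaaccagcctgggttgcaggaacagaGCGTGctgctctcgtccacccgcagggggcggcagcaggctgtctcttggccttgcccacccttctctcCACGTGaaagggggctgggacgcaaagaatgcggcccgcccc
Pfkp, chr13:6648778-6649021, - strand: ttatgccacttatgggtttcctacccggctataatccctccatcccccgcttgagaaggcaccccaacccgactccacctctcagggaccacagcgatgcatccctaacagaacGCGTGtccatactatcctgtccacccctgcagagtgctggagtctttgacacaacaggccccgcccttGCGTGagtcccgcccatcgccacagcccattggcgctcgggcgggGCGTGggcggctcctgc
Ldhb, chr6:142507958-142508207, - strand: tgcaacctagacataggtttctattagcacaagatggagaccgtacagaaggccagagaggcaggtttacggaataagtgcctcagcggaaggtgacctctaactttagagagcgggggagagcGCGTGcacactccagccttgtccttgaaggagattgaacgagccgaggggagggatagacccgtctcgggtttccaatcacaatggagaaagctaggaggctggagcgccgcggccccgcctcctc
P4ha2, chr11:54100674-54100923, + strand: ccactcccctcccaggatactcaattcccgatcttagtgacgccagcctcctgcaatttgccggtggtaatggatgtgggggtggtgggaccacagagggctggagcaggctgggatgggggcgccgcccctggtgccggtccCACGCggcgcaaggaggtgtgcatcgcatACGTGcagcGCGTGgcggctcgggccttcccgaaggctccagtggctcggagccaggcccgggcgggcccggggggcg
Adm, chr7:110627407-110627656, + strand: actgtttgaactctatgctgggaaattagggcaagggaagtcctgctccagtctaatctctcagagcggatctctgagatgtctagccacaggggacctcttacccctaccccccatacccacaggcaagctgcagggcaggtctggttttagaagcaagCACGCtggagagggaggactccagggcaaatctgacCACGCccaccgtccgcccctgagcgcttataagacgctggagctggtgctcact

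The letters ACGTG stood in the promoters of Ddit4, Pfkfb3 and P4ha2, with 1, 2 and 1 matches, and those of Pfkp, Ldhb and Adm held only GCGTG, with 3, 1 and 2 matches. The 2 in Pfkfb3 overlap, since CACGTG reads ACGTG on both strands. In all, 32 of the 34 genes had a RefSeq promoter here, and 17 of them (53.1%) held ACGTG in the 250 bases, against 18.7% of 16952 genes. For these counts the 250 bases were not cut back, so they include transcribed sequence for some members, and for Higd1a all 250 bases lay in an exon. Either core was present in 27 of 32 (84.4%), against 47.2% of all these genes and 56.5% of the 10581 that were also tested in the HFD table. The median GC content was 62.8% in the 32 promoters and 56.8% in all, so the backgrounds differ in base composition. A match of 5 letters is a description of the sequence, not a measured binding site.

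In wild-type fat the order of levels, compared per kilobase of transcript within a table, was led by aldolase A. Aldoa, which splits fructose 1,6-bisphosphate, had 10338 normalised reads per kilobase in CD and 20308 in HFD, 57437 in inguinal fat, and 60211 (Epi) and 70961 (Adipo) after 12 weeks of diet. Ldha, the lactate dehydrogenase subunit that favours lactate formation, was second in all 5 tables, from 4714 in CD to 27375 in Epi. At the other end, Aldoc, Slc16a3 (the monocarboxylate transporter MCT4) and Ankrd37 were the lowest 3 in every table, with 1.41 to 37.2 per kilobase. The regulator Pfkfb3, whose product makes fructose 2,6-bisphosphate, ranked high in intra-abdominal fat, at 11719 per kilobase in Epi, and lower in inguinal fat, at 908 in BA, behind 12 other members. The tables differ in normalisation, depot and age, so these levels are set side by side and not tested.

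**Figure D1:**
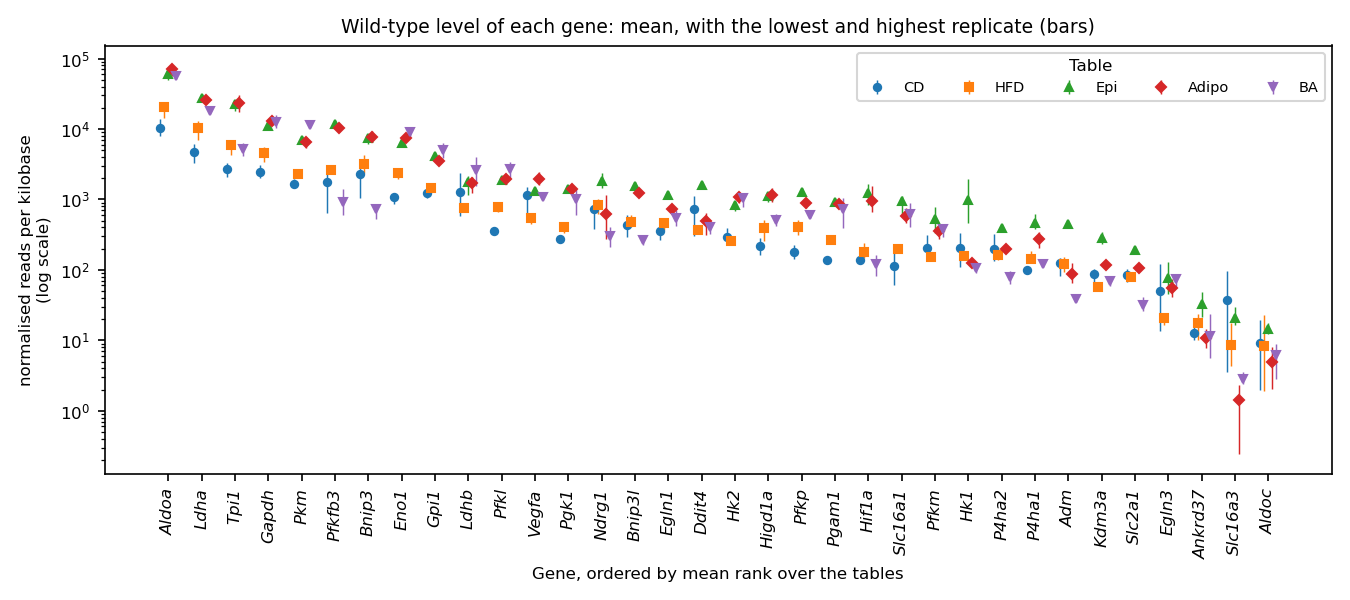
Wild-type level of each of the 34 genes in normalised reads per kilobase (log axis), with the mean as a point and the lowest and highest replicate as a bar, in the 5 tables. Aldoa and Ldha stand at the left in every table, and Ankrd37, Slc16a3 and Aldoc at the right.

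Several of these levels depend on how reads of near-identical copies were assigned. For Gapdh 82.5% of the 50-base stretches of the transcript also occur in transcripts of other genes, and for Eno1, Pgk1, Pgam1, Pkm and Ldhb the share was 72.2%, 68.0%, 41.5%, 34.4% and 27.0%. Their values are uncertain to that extent. Pfkp shares 18.0% of its exonic bases with Pitrm1, and Higd1a, Bnip3, Ankrd37 and Ndrg1 overlap other genes over 30.6%, 28.7%, 26.2% and 19.2%. Ddit4, Adm, P4ha2, Hk1, Hk2 and Slc16a1 share none in either way.

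Knockout was then compared with wild type within each table by limma on log2(value + 1), with Benjamini-Hochberg adjustment over all genes tested and a threshold of 0.05. Fold changes stand on that scale, knockout minus wild type, with standard errors. The 34 genes passed the test only in HFD, where 2 rose and 3 fell. Of the 13946 genes tested there 3.47% were called, 1.01% higher and 2.46% lower, so the 5 of 34 stand beside a background that leaned to lower values. In CD and Epi, limma called 0 of 15467 and 0 of 17513 genes at all (0%), hence 0 of the 34 in each, while 2 of the 34 in CD and 1 in Epi had an unadjusted p under 0.05, against 9.61% and 9.21% of all genes. In Adipo 32 of the 34 were tested and 0 were called, beside 0.638% of 14105 genes (0.546% higher, 0.0922% lower), with 11 at an unadjusted p under 0.05 (24.2% of all genes). In BA 33 were tested and 0 were called, beside 0.0323% of 12377 genes, with 4 at an unadjusted p under 0.05 (9.03% of all genes). Slc16a3 and Ankrd37 in Adipo and Ankrd37 in BA fell under the minimum mean of 10.

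Count models on the recovered reads, with the same adjustment and threshold, gave other numbers of calls. In HFD, edgeR called 5 members (Egln3 in place of Pfkp) beside 3.36% of all genes, and DESeq2 called 7 (also Eno1 and Egln3) beside 9.19%. In Adipo, edgeR called only Adm (0.986% of all genes) and DESeq2 called 9 members (11.6%), Adm, Hk1, Slc2a1 and Vegfa higher and Eno1, Gapdh, Higd1a, Pfkp and Tpi1 lower. In BA, edgeR called 0 members (0.0287% of all genes) and DESeq2 called Aldoc alone (2.08%). Neither tool called a member in CD (edgeR 0%, DESeq2 4.92% of all genes) or in Epi (0% and 3.53%).

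Signs were mixed in most tables. The members' median log2 fold change was 0.23 in CD (all genes 0.11), -0.11 in HFD (all genes -0.09) and -0.02 in BA (0.01), with 0.06 in Epi (-0.03) and -0.11 in Adipo (-0.04). In CD 25 of 34 were positive, but TMM scaling moved the median of all genes there to 0.01 and that of the members to 0.13. The replicates labelled knockout lay wholly above wild type for 5 members in CD (12.4% of all genes), 3 in HFD (4.03%), 1 in BA (3.26%), 1 in Epi (7.29%) and 7 in Adipo (20.8%). They lay wholly below for 1 in CD (4.54%), 5 in HFD (10%), 0 in BA (2.23%), 2 in Epi (9.16%) and 11 in Adipo (27.3%). On simulated data made from these samples, limma recovered 37% of changes of log2 size 1 in CD, 64% in Epi, 82% in Adipo, 96% in BA and 99% in HFD. The simulation gave every gene of a table the same relative spread, so differences in spread between genes were not part of it. Its changes were placed only in genes above a level higher than the minimum mean of 10. The shares hold for that setting and not for all genes tested. In CD the members' standard errors ran from 0.12 (Pfkl) to 1.24 (Slc16a3), with 0.50 for Ddit4 and 0.57 for Pfkfb3. The shares therefore do not give the power for single members, and may overstate it for variable or low ones.

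**Figure D2:**
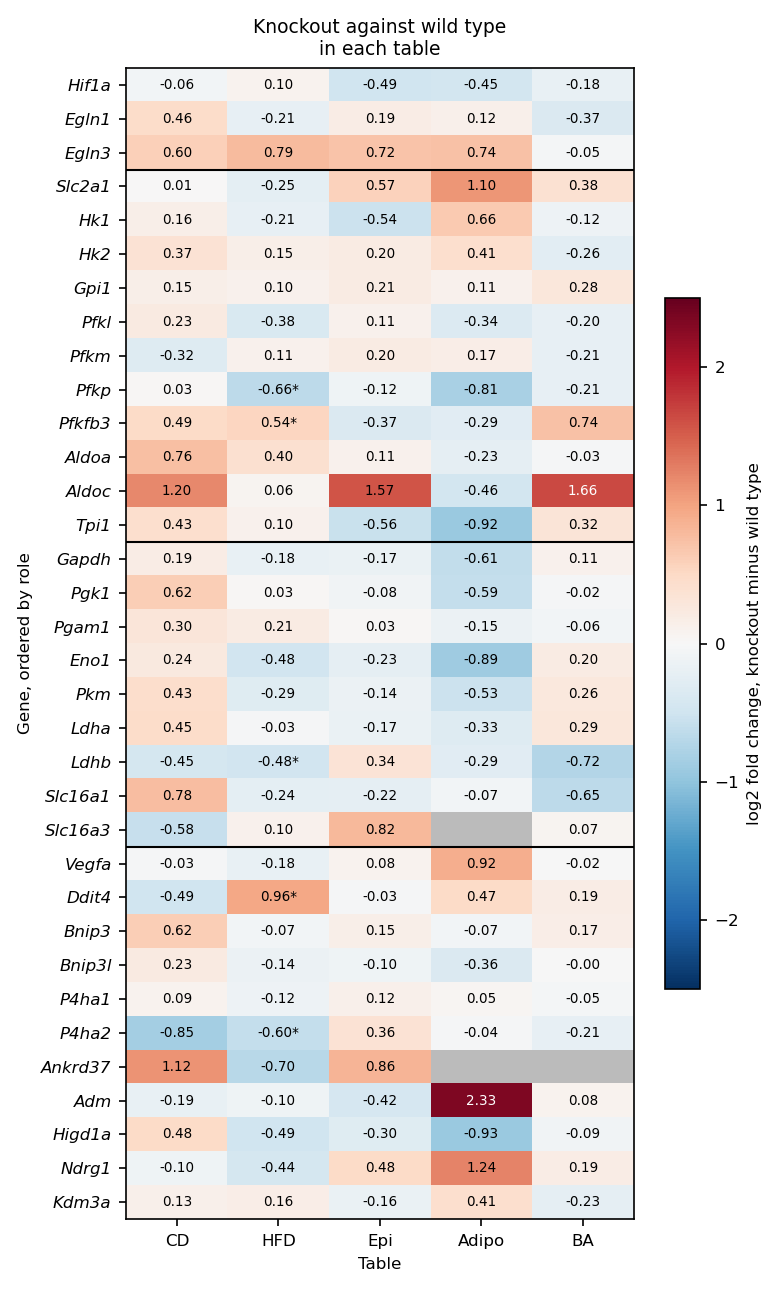
Log2 fold change (knockout minus wild type) of the 34 genes in the 5 tables, ordered by role: oxygen sensing, glucose uptake and the steps to triose phosphate, the later steps to lactate, and other hypoxia genes. Asterisks mark the 5 values past an adjusted p of 0.05, which all stand in HFD, and grey cells were under the filter.

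The clearest change was in Ddit4 (REDD1), a hypoxia- and stress-induced inhibitor of mTORC1 signalling. In HFD it read 681, 674, 617 and 651 normalised reads in wild-type replicates 1 to 4 and 1246, 1305, 1377 and 1197 in the replicates labelled knockout. The groups were far apart and tight within themselves, and the fold change was 0.96 ± 0.08 (adjusted p = 0.00229, limma with Benjamini-Hochberg adjustment), a ratio of means of 1.95. It remained past the threshold in 23 of 23 alternatives, at adjusted p-values of at most 0.0128. Elsewhere Ddit4 did not pass: it read 1383, 534 and 1935 against 684, 674 and 1105 in CD (-0.49) and 2679, 2944 and 2722 against 2128, 4066 and 2351 in Epi (-0.03). Adipocytes gave 928, 545 and 1109 against 1698 and 769 (0.47), and BA gave 678, 895, 678 and 574 against 562, 881, 751 and 1070.0 (0.19). In these 4 tables the groups overlapped, with the CD values spread over more than the HFD difference.

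Pfkfb3, which raises fructose 2,6-bisphosphate and so activates phosphofructokinase, also rose in HFD. The wild-type replicates stood at 12014, 12814, 12248 and 12585 normalised reads and those labelled knockout at 17006, 17198, 20597 and 17723. Each replicate labelled knockout was above each wild type, and the fold change was 0.54 ± 0.11 (adjusted p = 0.0271, limma with Benjamini-Hochberg adjustment). In BA the values were 3308, 4459, 2816 and 6698 against 6182, 7364, 7013 and 6753, a difference of 0.74 ± 0.25 that did not pass (adjusted p = 0.36, limma); wild type 4 lay within the knockout range and the other 3 below it. Epi held 52369, 62468 and 52368 against 68394, 27699.7 and 42329 and CD 10267, 3033 and 11592 against 8509, 8198 and 14194, with wide, overlapping groups. In adipocytes the knockout values of 41988 and 37466 were both under the wild-type values of 51168, 50389 and 43806 (-0.29 ± 0.18, not called).

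Pfkp, the platelet-type phosphofructokinase, fell in the same HFD samples in which the activator of its enzyme class rose. Wild type gave 1295, 2109, 1640.5 and 1654 and knockout 1079, 1062, 1055 and 984 normalised reads, with no overlap, and the fold change was -0.66 ± 0.14 (adjusted p = 0.0324, limma with Benjamini-Hochberg adjustment). Adipocytes showed 3681, 3177 and 4352 against 2064 and 2159, also without overlap, at -0.81 ± 0.17 but an adjusted p of 0.0845 by limma. In CD (921, 600.1 and 735 against 622, 652 and 1066), Epi (5299, 4613 and 6083 against 5862, 3389 and 5886) and BA (2416, 2236, 2685 and 2725 against 1856, 2395, 2027 and 2427) the groups overlapped, with differences of 0.03, -0.12 and -0.21.

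Ldhb, the lactate dehydrogenase subunit that favours pyruvate formation, fell in HFD from 935, 879.7, 953 and 1166 to 723, 660.1, 736 and 684 normalised reads. The groups did not overlap, and the fold change was -0.48 ± 0.10 (adjusted p = 0.0352, limma with Benjamini-Hochberg adjustment). P4ha2, a subunit of the collagen prolyl 4-hydroxylase, fell from 331, 349, 312 and 465 to 228, 221, 245 and 255, again without overlap, at -0.60 ± 0.13 (adjusted p = 0.0388, limma with Benjamini-Hochberg adjustment). It was below wild type without overlap in CD too (327, 714 and 296 against 208, 228 and 244, -0.85 ± 0.35, not called), where wild type 2 is the epithelium-marked library. Epi gave 788, 909 and 958 against 627, 1819 and 1260.2 for P4ha2, Adipo 411, 488 and 432 against 394 and 472 and BA 214, 187, 173 and 141 against 135, 152, 133 and 199.9, all overlapping.

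The 4 smaller HFD calls depended on which replicates were included. Leaving out any 1 of the 4 libraries labelled knockout left only Ddit4 called, with adjusted p-values of 0.0583 to 0.124 for the other 4 genes, and leaving out wild type 3 ended the calls of Pfkfb3 (0.0645), Pfkp (0.0722) and Ldhb (0.0728). Wild type 2 decided P4ha2 (0.0683 without it) and wild type 4 decided Pfkp (0.0647 without it), while without wild type 1 all 5 stayed called and the count went up to 8, adding Eno1, Higd1a and Pfkl. HFD wild type 1 had the highest epithelial markers of its table (mean log2 level 6.60, the others 3.23 to 4.75) and knockout 1 the highest B cell markers (6.72, the others 3.46 to 4.89). Without both, 4 members passed: Ddit4, Pfkfb3, Pfkp and Higd1a. In bulk samples fewer cells of a type and less RNA per cell cannot be told apart. The mean log2 level of the 8 adipocyte markers overlapped in HFD, at 15.3 to 15.7 in wild type and 15.5 to 15.7 in knockout, but 2 of the 8, Cfd and Pparg, were higher in knockout without overlap, and 2 of the 8 were called. T cell markers were higher too: 3 of 4 did not overlap and 1 was called, with a summed level of 47.9 to 77.3 normalised reads in knockout against 19.4 to 35.0 in wild type. The part of these markers in the HFD values was not tested.

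**Figure D3:**
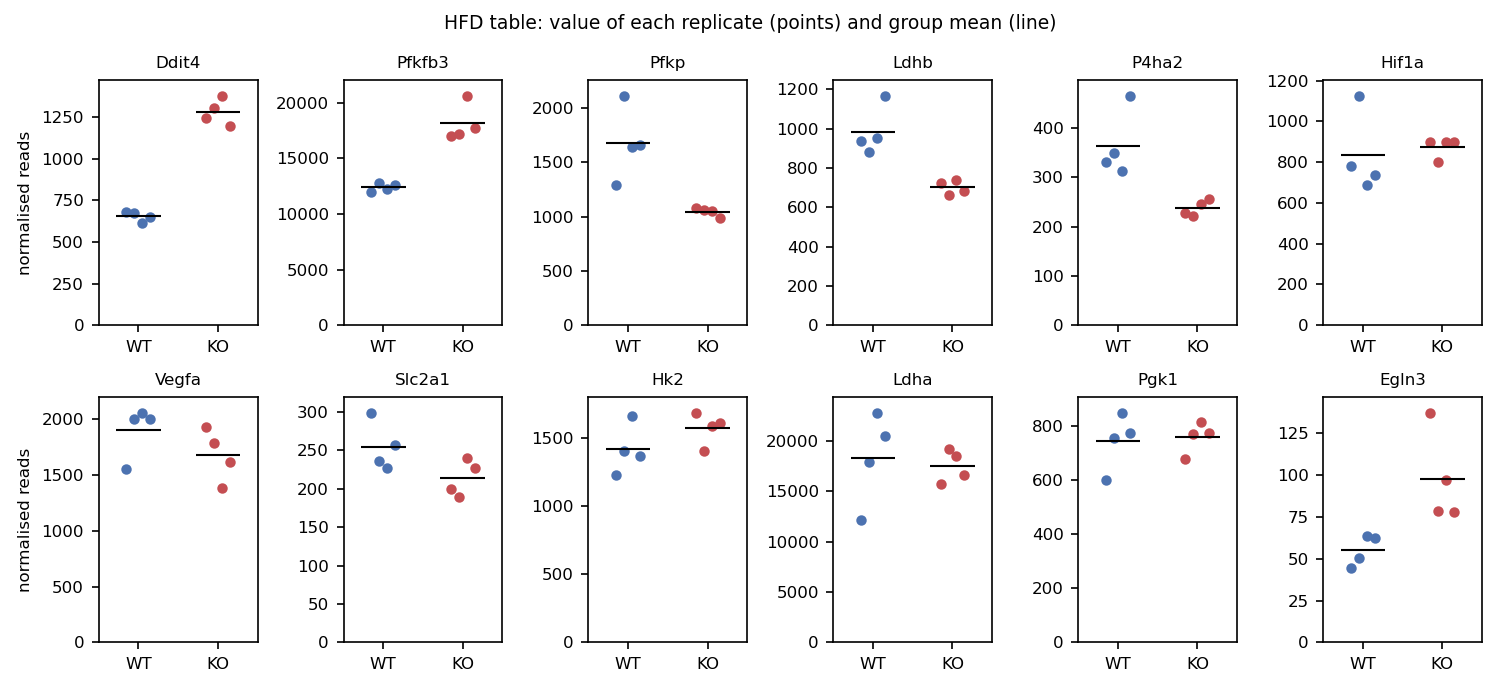
Normalised reads of 12 genes in the 4 wild-type (WT) and 4 knockout-labelled (KO) replicates of the HFD table, with group means as lines and axes from 0. The first 5 panels are the genes past the test; their groups do not overlap, while those of Hif1a, Vegfa, Slc2a1, Hk2, Ldha and Pgk1 do.

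Among the oxygen sensors, Hif1a, the oxygen-regulated subunit of the factor, is controlled mainly at the protein level, and its messenger passed in no table. HFD gave 783, 1125, 689 and 738 against 898, 802, 899 and 901 normalised reads (0.10), CD 574, 648 and 718 against 630.1, 566 and 657 (-0.06) and BA 534, 393, 770.3 and 572 against 557, 474, 558 and 378 (-0.18). The groups overlapped in each. Epi gave 4002, 5663 and 7748 against 4031, 3628 and 4342 (-0.49 ± 0.24, adjusted p = 0.579, limma) and Adipo 3124, 3209 and 7264 against 3370.1 and 2763 (-0.45 ± 0.39). Wild type 3 was the highest sample in both of the last tables, where it is not settled whether same-numbered samples share an animal. Macrophage markers were highest in those same samples too (mean log2 levels 12.56 in Epi and 10.33 in Adipo). Their part in the result was not tested. Egln3 (PHD3), a hydroxylase that is itself a hypoxia target, was positive in 4 of 5 tables and without overlap in 2: HFD with 44.2, 50.1, 63.3 and 62.6 against 137, 78.4, 97.0 and 77.9 (0.79 ± 0.21, adjusted p = 0.0739, limma) and Adipo with 109, 195 and 140.2 against 262 and 223 (0.74 ± 0.31, adjusted p = 0.209, limma). Egln1 (PHD2), the main sensor in most cells, overlapped in all 5, from -0.37 in BA to 0.46 in CD.

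Slc2a1 (GLUT1), the basal glucose transporter, did not pass in any table, but was higher without overlap in both 12-week tables. Epi held 636, 612 and 653 against 965, 1322 and 656 normalised reads (0.57 ± 0.25, adjusted p = 0.554, limma), with knockout 3 only just above the highest wild type. Adipo held 344, 397 and 314 against 522 and 1082 (1.10 ± 0.32, adjusted p = 0.129, limma). Knockout 2 was the highest sample in both tables, 1 of the pair of Epi libraries with epididymis markers. BA gave 103, 134, 94.7 and 84.0 against 132, 142, 126 and 137 (0.38 ± 0.15, adjusted p = 0.486, limma), where wild type 2 alone reached into the knockout range. HFD with 298, 236, 228 and 257 against 199.9, 189, 241 and 228 (-0.25) and CD with 217, 331 and 282 against 295, 306 and 229 (0.01) overlapped.

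Hexokinase traps glucose in the cell. Hk2, the insulin-regulated isozyme, read 1229, 1405, 1655 and 1368 against 1678, 1402, 1583 and 1605 in HFD (0.15), 1242, 1341 and 2197 against 1918, 1878 and 2175 in CD (0.37) and 5462, 4269.6, 6529.8 and 6592 against 3994, 5319, 4442 and 5120.3 in BA (-0.26). In Epi it read 4991, 5191 and 3778 against 6394, 3717 and 6218 (0.20) and in Adipo 6957, 6012 and 4915 against 6949.8 and 8855 (0.41). The groups overlapped in all 5. Hk1, the housekeeping isozyme, was higher without overlap only in Adipo, with 496, 466 and 481 against 875 and 656 (0.66 ± 0.17, adjusted p = 0.109, limma). The wild-type ratio of Hk2 to Hk1 per kilobase was 8.57 in adipocytes and 9.73 in inguinal fat, against 1.05 in Epi, 1.55 in CD and 1.63 in HFD, where whole intra-abdominal tissue was measured. In Epi, wild type 1 stood apart with 7584 reads of Hk1, against 1765 and 2128 in the other wild-type samples. It also had the highest epididymis markers of these samples (mean log2 level 4.67, the others 0.79 and 0.09), whose part was not tested.

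Between hexokinase and aldolase, Gpi1 (phosphoglucose isomerase) was positive in all 5 tables, but by only 0.10 to 0.28 and with overlapping groups. The liver-type Pfkl was lower without overlap in HFD (2469.8, 2930.0, 3432 and 2880.2 against 2104, 2219.5, 2452 and 2155, -0.38 ± 0.11, adjusted p = 0.105, limma) and the muscle-type Pfkm was not (0.11). The ratio of Pfkm to Pfkl per kilobase was 0.195 in wild type and 0.275 in knockout, each knockout ratio above each wild type, and exact two-sided permutation gave p = 0.0286, the smallest it allows for 4 against 4. Over the 30 isozyme ratios and tables examined the adjusted value was 0.286, and 0 ratios passed. The 3 phosphofructokinase genes thus gave values of -0.38, -0.66 and 0.11 in the same HFD samples.

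The share of aldolase A among the enzyme messengers was higher in the knockout mean of 4 tables and lower in BA, and passed the threshold in none after adjustment. Aldoa itself read 22436, 34446, 36928 and 32015 against 30800.5, 47298, 47279.9 and 40236 normalised reads in HFD (0.40 ± 0.20, overlapping, not called). As a percentage of the summed level per kilobase of 16 glycolytic enzymes, which does not depend on library scaling, it stood at 38.9, 42.3, 40.6 and 39.0% in wild type and 45.9, 50.004, 49.6 and 48.9% in knockout. The HFD groups did not overlap, at 40.2 ± 1.61 against 48.6 ± 1.88% (SD, n = 4 each; exact two-sided permutation p = 0.0286, the smallest possible, and 0.0714 adjusted over the 5 tables). The share was also higher without overlap in CD (37.5 ± 4.75 against 45.6 ± 4.69%, n = 3 each, exact p = 0.1) and in Adipo (44.2 ± 2.47 against 49.4 ± 0.849%, n = 3 and 2, exact p = 0.2), and overlapped in Epi (40.5 ± 2.86 against 46.0 ± 3.67%, n = 3 each, exact p = 0.2). In BA it ran the other way, at 45.0 ± 2.02 against 41.3 ± 0.39% (n = 4 each, exact p = 0.0286, adjusted 0.0714). This share was chosen after its values were seen, and designs of 3 against 3 and 3 against 2 cannot go below 0.1.

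**Figure D4:**
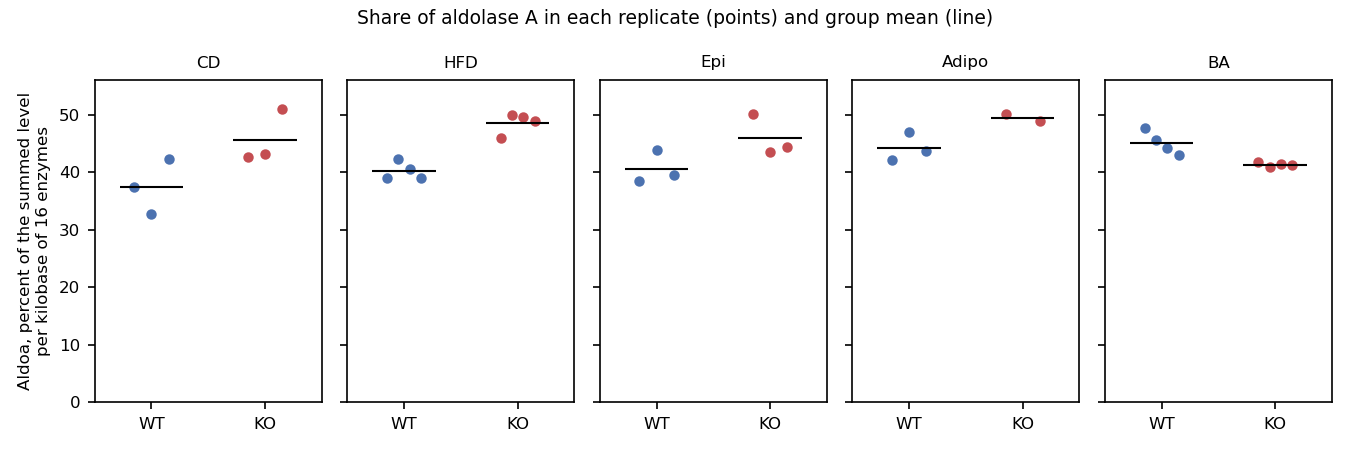
Share of Aldoa in the summed level per kilobase of 16 glycolytic enzymes (percent), one point per replicate and the group mean as a line, by table. Knockout points lie above wild type in CD, HFD and Adipo, overlap in Epi and lie below in BA.

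Aldoc, the brain-type aldolase, was among the lowest members in wild type. BA gave 23.7, 24.6, 11.9 and 7.97 against 50.2, 40.1, 67.6 and 49.5 normalised reads, without overlap, at 1.66 ± 0.34 (adjusted p = 0.12, limma with Benjamini-Hochberg adjustment), the member of smallest p in that table. In Epi it read 33.8, 40.6 and 48.5 against 35.8, 755 and 66.9, with knockout 2, the library highest in epididymis and epithelial markers, far above the rest. CD gave 16.1, 54.2 and 5.56 against 67.6, 71.8 and 14.0, where the 3 high samples are the 3 libraries with epithelial markers. HFD held 64.5, 7.27, 5.26 and 14.1 against 21.6, 6.58, 17.9 and 17.7, with the highest value in wild type 1, which had the most epithelial markers of that table; their part in these values was not tested. Tpi1 (triose phosphate isomerase) had the smallest p in Epi, 29237, 36928 and 42098 against 29874, 22308 and 21089 (-0.56 ± 0.21, adjusted p = 0.504, limma), with knockout 1 within the wild-type range, and in Adipo 27766, 37276 and 49341 against 20276 and 18860.4 (-0.92 ± 0.27, no overlap). Neutrophil markers were lower in the Epi libraries labelled knockout (2 of 5 without overlap, summed level 51.5 to 57.6 against 321 to 559), and their part in the Epi values was not tested.

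The steps from glyceraldehyde 3-phosphate to lactate release gave the most uniform picture in adipocytes. There, all 8 tested members of this role were negative, with a median of -0.43 and a range of -0.89 to -0.07, and 0 passed. Eno1 (enolase) read 15212, 14648 and 15733 in wild type and 7687 and 8760.1 in knockout, a wide gap without overlap at -0.89 ± 0.15 (adjusted p = 0.0666, limma with Benjamini-Hochberg adjustment). The adjusted p was 0.0391 without Adipo wild type 3 and 0.107 to 0.419 without any other 1 library, and 4 of 15 alternatives called it. Gapdh (-0.61), Pgk1 (-0.59), Pkm (-0.53) and Ldha (-0.33) were also below wild type without overlap, as were 27.3% of all genes in that table. In CD the same role was positive for 7 of 9 (median 0.30), in HFD for 3 of 9 (-0.18), in Epi for 3 of 9 (-0.14) and in BA for 5 of 9 (0.07).

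Pgk1 (phosphoglycerate kinase), an ATP-yielding step, had the smallest p in CD, with 454, 525 and 523 against 681, 683 and 974 (0.62 ± 0.18, adjusted p = 0.504, limma). The groups did not overlap. In the same CD libraries mast cell markers were lower in knockout (4 of 5 without overlap and 1 higher, summed level 389.7 to 617 against 835 to 1009.6), and their part was not tested. It read 602, 756, 848 and 776 against 679, 771, 816 and 773 in HFD (0.03), 2275, 2708 and 2747 against 2849, 2134 and 2357 in Epi (-0.08) and 2293, 2667 and 2848 against 2056 and 1435 in Adipo. In BA it read 1114, 1312, 2458 and 2560.2 against 2383, 1713, 1266 and 1664, high in wild type 3 and 4 and in knockout 1. Wild type 3 and 4 also had the highest thermogenic markers of BA (mean log2 levels 12.93 and 13.73, the others 9.80 to 11.93; Ucp1 20678 and 40497 reads, the others 1255 to 7787), whose part in the spread was not tested. Pkm, the pyruvate kinase of most tissues, gave 3607, 4784 and 3789 against 5252, 5422 and 5628 in CD (0.43 ± 0.17, no overlap, adjusted p = 0.518, limma).

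Ldha read 12147, 17943, 22744 and 20499.8 against 15682, 19199, 18486 and 16587 in HFD (-0.03), 8181, 5882 and 10912 against 9435, 9543 and 14908 in CD (0.45) and 29890.4, 29333, 33832 and 32233 against 45890.3, 39523, 31368 and 37716 in BA (0.29). Epi gave 42900.0, 48668 and 53463 against 44524, 35917 and 49121 (-0.17), and Adipo 40558, 47907 and 50108 against 34816 and 38547. Only the Adipo groups did not overlap. Its partner Ldhb read 2021, 2693, 3924 and 5193 in BA wild type and 2339.8, 2233, 1199 and 2382 in knockout (-0.72 ± 0.31, adjusted p = 0.536, limma). The ratio of Ldhb to Ldha in BA was 0.141 in wild type and 0.0696 in knockout per kilobase, without overlap (exact two-sided permutation p = 0.0286, adjusted 0.286), and the HFD ratio was 0.0742 against 0.0544 (exact p = 0.0571, adjusted 0.343). Thermogenic markers in BA were at mean log2 levels of 10.65, 11.41, 12.93 and 13.73 in wild type and 11.80, 11.66, 9.80 and 11.93 in knockout. Within each genotype Ldhb had the same order of replicates, and the part of these markers in Ldhb and its ratio was not tested. In the other tables Ldhb overlapped: 749, 3098 and 1184 against 1002, 1043 and 1034 in CD, 2521, 2828 and 1510.0 against 2059, 3575 and 2991 in Epi and 2434, 2707 and 1603 against 1561 and 2062 in Adipo. Slc16a1 (MCT1), which carries lactate, overlapped in all 5, from -0.65 in BA to 0.78 in CD.

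Among the remaining hypoxia genes, the largest difference of any member was that of Adm, which encodes the vasodilator peptide adrenomedullin, in adipocytes. It read 101, 91.8 and 176 normalised reads in wild type and 567 and 624 in knockout, well apart, at 2.33 ± 0.32, and just missed the threshold (adjusted p = 0.0508, limma with Benjamini-Hochberg adjustment). Over 15 alternatives the adjusted p ranged from 2.23e-09 to 0.319, and 8 of them called it; without wild type 3 it was 0.00488. In whole fat (Epi) it ran the other way, 663, 632 and 569 against 347, 546 and 528 (-0.42 ± 0.21, no overlap, not called). The knockout effect differed between Epi and Adipo by -2.74 ± 0.39 (interaction in limma, adjusted p = 0.0144; 1.67% of 14033 genes called), and by -2.83 with the replicate number as a block (adjusted p = 0.0269). That call was lost without Epi wild type 2 (0.0543) and without Adipo knockout 1 (0.0562). CD (198, 114 and 207 against 137, 137 and 165), HFD (215, 201, 130.0 and 134 against 182, 128, 154 and 159) and BA (49.5, 48.5, 63.6 and 55.0 against 51.1, 47.4, 74.4 and 58.5) overlapped for Adm.

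Endothelial markers stood higher beside Adm in adipocytes. All 6 of 6 were higher without overlap in the libraries labelled knockout, with a summed level of 13651 and 33480.2 against 1962 to 3492 in wild type. Pecam1 read 798, 466 and 917 against 8226 and 3452, and in Epi 16372, 13064 and 13242 against 15612, 13824 and 15717, all high and overlapping. Mesothelial markers were higher too (5 of 5 without overlap, summed level 917 and 1409.6 against 116 to 566), as were mast cell markers (3 of 5 without overlap, summed level 206 and 513 against 50.1 to 76.7). The part of these cells in the Adipo values of Adm, Vegfa, Slc2a1 and the enzymes was not tested.

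Vegfa, the angiogenic growth factor, was higher in Adipo without overlap, 8351, 6553 and 5458 against 9681 and 16442 (0.92 ± 0.29, adjusted p = 0.142, limma). Of the pair labelled knockout, replicate 2 was the higher for Vegfa and for Adm, and replicate 1 for the endothelial markers. The part of these markers was not tested. The other tables overlapped, with 1551, 1999, 2054 and 2003 against 1932, 1792, 1387 and 1618 in HFD (-0.18), 4889, 4246 and 4674 against 6451, 3867 and 4589.5 in Epi (0.08), 3596, 3973, 3497 and 3893 against 2427, 4752, 3325 and 4823 in BA (-0.02) and 5149, 1912 and 5065 against 2944, 3028 and 5279.8 in CD (-0.03). In CD the low values were those of wild type 2 and knockout 1 and 2, the libraries with epithelial markers, and Ddit4 was lowest in the same 3.

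**Figure D5:**
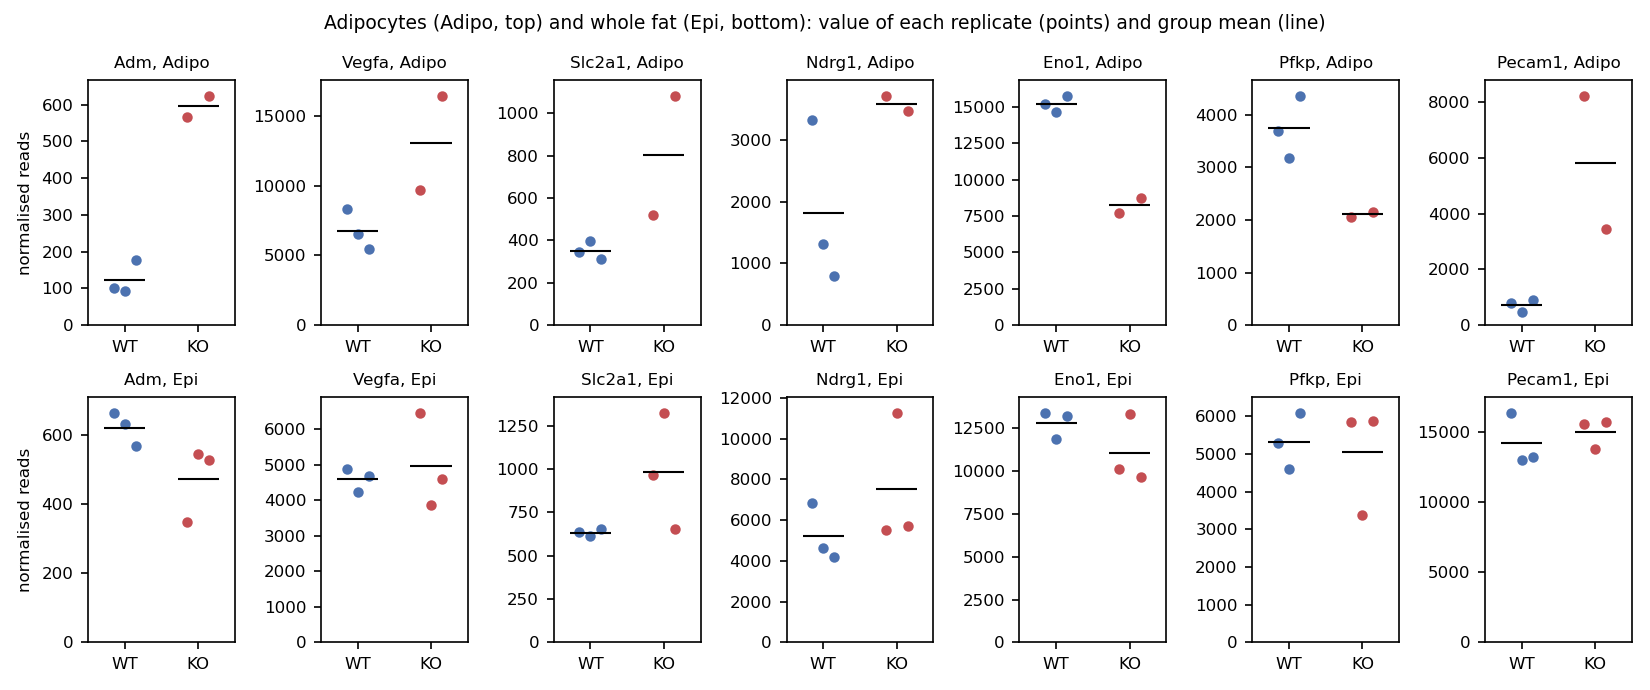
Normalised reads of Adm, Vegfa, Slc2a1, Ndrg1, Eno1, Pfkp and the endothelial marker Pecam1 in each replicate of adipocytes (top) and whole intra-abdominal fat (bottom), with group means as lines and axes from 0. In adipocytes the KO points of Adm and Pecam1 lie above WT and those of Eno1 and Pfkp below, while in whole fat Eno1, Pfkp and Pecam1 overlap.

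Higd1a, a mitochondrial protein induced by hypoxia, was lower without overlap in Adipo (2054, 2323 and 3261 against 1213 and 1423, -0.93 ± 0.22, adjusted p = 0.0994, limma) and at -0.49 in HFD with overlap. Ndrg1, a stress-responsive gene, was higher in Adipo at 3313, 1314 and 798 against 3706 and 3458 (1.24 ± 0.57), where wild type 1 nearly reached the knockout values. Bnip3 and Bnip3l, receptors for mitophagy, stayed within 0.62 of zero on the log2 scale in every table, and P4ha1, the sister subunit of P4ha2, within 0.12. Kdm3a, a histone demethylase, was positive in 3 tables, the most in Adipo (0.41, no overlap). Ankrd37 was tested in 3 tables and read at most 159.6 normalised reads, in Epi knockout 2. None of these passed.

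The wider pathway was read through 79 other genes of glycolysis, pyruvate handling and the hypoxia response. In HFD 73 were tested and 5 passed, all lower (2.46% of all genes were called lower), with 16, or 21.9%, at an unadjusted p under 0.05, near the 20.8% of all genes. Hif3a, which encodes a further HIF subunit, fell from 83.7, 62.0, 60.7 and 62.4 to 26.1, 19.7, 24.3 and 30.3 (-1.39 ± 0.18, adjusted p = 0.00619, limma). Among the kinases that restrain pyruvate dehydrogenase, Pdk4 fell from 1523, 1395, 1171 and 1232 to 777, 766, 789 and 854 (-0.73 ± 0.10) and Pdk3 by 0.62 on the log2 scale. The collagen lysyl hydroxylase Plod1 fell by 0.54 on the log2 scale. Fbp2, the muscle fructose bisphosphatase, fell from 147, 20.8, 33.9 and 45.0 to 3.41, 6.72, 8.21 and 5.33 (-2.84 ± 0.54), with its highest value in wild type 1, the sample with the highest skeletal muscle markers of the table (mean log2 level 4.15, the others 2.26 to 3.19; their part was not tested). Pdk4 and Hif3a passed in every alternative run for them.

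In Adipo 69 of the 79 were tested and 0 passed by limma (0.638% of all genes), with 22, or 31.9%, at an unadjusted p under 0.05 (24.2% of all genes). In CD, Epi and BA 0 of 74, 76 and 70 passed (0%, 0% and 0.0323% of all genes), with 8, 7 and 9 at an unadjusted p under 0.05, which is 10.8%, 9.21% and 12.9% beside 9.61%, 9.21% and 9.03% of all genes. Between Epi and Adipo the knockout effect differed for Flt1 (-2.91 ± 0.50) and Kdr (-2.80 ± 0.47), both endothelial receptors for VEGF, at adjusted p-values of 0.0254 and 0.0235 by the limma interaction. These calls held in 10 of 17 alternatives for Flt1 and 9 of 17 for Kdr. Both were lost without any 1 of the 6 Epi libraries, Flt1 also without Adipo knockout 1 and Kdr also without Adipo wild type 1 or 2, with adjusted p-values of up to 0.10025 and 0.0751.

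Whether an effect of the genotype differed between other tables was also tested as an interaction, each table being normalised on its own. HFD against CD gave 0 of 13749 genes (0%) and HFD against Epi 0 of 13942 (0%), with 10 and 8 members at an unadjusted p under 0.05 (17.3% and 17.1% of all genes). HFD against BA gave 0.381% of 12079 genes (0.0414% higher, 0.339% lower) and 0 of 33 members, with 8 at an unadjusted p under 0.05 (13.5%). For Ddit4 the HFD effect exceeded that in Epi by 0.99 ± 0.24 (adjusted p = 0.12, limma) and that in BA by 0.78 ± 0.23 (adjusted p = 0.155, limma), so the effect was not shown to differ between these tables. The difference from CD was 1.46 ± 0.46 (adjusted p = 0.185, limma). Without Epi knockout 2 the difference from Epi passed (1.28, adjusted p = 0.00369, limma), and without CD wild type 2 Ddit4 was the 1 member called in the difference from CD.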

How the data were processed

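Stranded poly(A) libraries were made per the labels' protocols. The deposited files hold a signal for each Ensembl transcript: the authors' counts after scaling by library size factors. In each of the 99 libraries the deposited signal gave whole reads for 100% of values within 0.05 of a read. Of these, 96 were taken as recovered reads for the count models. The submitters' processing notes name GRCm38.p4, STAR 2.4.0k, HTSeq 0.5.3, DESeq 1.8.3, SAMtools and bcl2fastq 2.17, without a role. Whether strand was used in counting they do not say. Of 100 samples 99 were used, grouped by title; 1 adipocyte column matched no sample and was not used, and Adipo knockout 3 was not analysed here.

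For each gene the transcript of highest mean was taken, named by GENCODE M21 on GRCm38; of 97669 transcripts 698 had no gene there and held 0.321% of the values. In CD, HFD and BA the 4 libraries of a replicate differed by about the sampling noise (chi-square per degree of freedom at most 1.16) and were averaged. CD knockout 1 and 2 differed by more (7.20, the next pair 204) and were kept apart. They were still far closer than any other pair of 1 genotype in CD, and whether they are distinct samples was not settled. The CD knockout group may therefore hold fewer independent samples than its number of replicates. Taking them as 1 replicate was 1 of the alternatives. Genes with a mean of 10 or more were tested on log2(value + 1) over the whole table by limma 3.58.1 (R 4.3.3; trended, robust moderation). This scale understates changes of low genes. Differences between tables were interaction terms in 1 fit. Alternatives were other scaling (TMM), filters, pseudocounts, moderation, summed transcripts, single libraries of a replicate, the replicate block, each replicate left out, and edgeR 4.0.16 and DESeq2 1.42.0 on recovered reads. The main limma fit and the edgeR and DESeq2 fits within each table were tested on simulated data. The interaction fits and the other alternatives were not.

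Replicate numbers were checked for pairing by correlating deviations from group means. Within tables the correlations of same-numbered wild type and knockout ran from -0.521 to 0.528, with mixed signs. Those of same-numbered Epi and Adipo samples were all positive (0.105 to 0.597). Samples of different numbers were not correlated for comparison, so pairing was not settled in either case. The members and lists were chosen with earlier results of these data known. Values in every sample are given for members past the threshold, for Hif1a, Vegfa, Slc2a1, Hk2, Ldha and Pgk1, and for the 3 members of smallest p in tables with no call. Of the 79 other pathway genes each that passed is named; 1 further listed gene is not reported here. Markers were listed for 15 cell types or tissues. Promoters of 32 of 34 members came from RefSeq on GRCm38.p6, matched by symbol.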

Additional observations from a re-analysis of the deposited data

Results flagged for a closer look

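Among the members, 136 groups of 4 replicates were checked for a sample far from the rest by Dixon's ratio at the 95% level, and 7 were found, where chance alone flags about 1 in 20 groups. In HFD, wild type 1 stood apart for Aldoc, with 64.5 normalised reads against 5.26 to 14.1, and for Vegfa, with 1551 against 1999 to 2054. Hif1a in HFD knockout 2 was at 802 against 898 to 901. In BA, knockout 1 was high for Tpi1, at 16638 against 8426 to 9057, and for Pgam1, at 1835 against 929 to 980.5. Ldhb in BA knockout 3 was at 1199 against 2233 to 2382. Skeletal muscle markers were at a mean log2 level of 7.92 in that replicate and of 7.67 in wild type 2, where Ldhb read 2693. Thermogenic markers were the lowest of BA in knockout 3, at 9.80 against 10.65 to 13.73 in the others. The part of either set of markers was not tested. Slc16a3 in BA knockout 2 was at 7.41 against 15.1 to 15.4.

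The difference of -2.74 in the knockout effect on Adm between whole fat and adipocytes is a result of the interaction test. It stands beside the endothelial markers given with it, whose part was not tested.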

How the results depend on the processing

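In HFD the count of members called was 5, and it was 2 without trend or robust moderation, 2 with no filter, 1 with the replicate block and between 1 and 8 with 1 replicate left out. TMM scaling and edgeR each also gave 5, with Egln3 in place of Pfkp. Over 23 alternatives the calls held in 23 for Ddit4, 17 for Pfkfb3, 14 for Ldhb, 12 for P4ha2 and 12 for Pfkp, with the same direction in all. In Adipo the count was 0, and it was 1 (Adm) with TMM scaling, with a mean of 50 or more, with pseudocount 5 and with edgeR (0.986% of genes), 2 with no filter, 9 with DESeq2 (11.6%), 5 with the replicate block and 0 to 4 with 1 replicate left out (4 without wild type 3). In BA it was 0, and 1 with DESeq2 (Aldoc, 2.08%). In CD and Epi it was 0 in every alternative run. The difference between HFD and CD gave 0 to 1 member with 1 replicate left out, that between HFD and Epi 0 to 2, and that between Epi and Adipo 0 to 1, where the full data gave 0, 0 and 1. The cause was not tested. None of these results turned its direction.

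Counts over all genes moved more: in HFD 484 against 1518 with DESeq2 and 126 to 1166 with 1 replicate left out, in Adipo 90 against 1709, 1395 with the replicate block and 3 to 718. CD and Epi went from 0 to 897 and 529, and BA from 4 to 280, with DESeq2. Leaving out CD wild type 2 and knockout 1 and 2, Epi knockout 2 and 3, or BA wild type 2 and knockout 3, chosen after seeing the data, gave 0 members each. Depth limits Aldoc, Slc16a3 and Ankrd37, whose values lie near the filter.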
